A study of Mus musculus with 2 samples.

Results

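The interferon response and MHC class I presentation were followed through 38 genes, chosen by symbol among the 43280 gene symbols counted, and all 38 were found. They comprised 2 cytosolic RNA sensors, 5 transcription factors, 15 antiviral effectors and regulators, 7 GTPases and 9 genes of class I presentation. Poly(A) RNA was sequenced from 1 library of small hepatocytes (SHs), described as intrinsic progenitors of hepatocytes, and 1 library of mature hepatocytes (MHs), both freshly isolated by collagenase perfusion from livers of the same C57BL6 mice. The labels give these mice an age of 20 weeks, whereas the methods give a younger age, and no treatment or altered allele is named for either group. MHs were the pellet of a slow spin, freed of dead cells on Percoll and not sorted. SHs came from the supernatant of that spin and were sorted for ICAM-1 and against CD31, CD45 and EpCAM, so that the cells compared differed in size, density and sorting together.

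Interferons are secreted cytokines that put cells on guard against viruses and intracellular bacteria. Type I interferons act through a receptor of the chains IFNAR1 and IFNAR2 and lead to binding of a complex that includes STAT2 and IRF9 at interferon-stimulated response elements, whereas interferon gamma acts through IFNGR1 and IFNGR2 and on gamma-activated sites. The genes switched on in this way encode antiviral effectors, immunity-related GTPases, and much of the machinery that cuts proteins into peptides and shows them to CD8+ T cells on major histocompatibility complex (MHC) class I molecules, which hepatocytes, like most nucleated cells, carry.

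Counted reads numbered 16979136 for MHs and 42356444 for SHs. Levels are given as reads per 1000000 counted reads (RPM), or per kilobase of exon as well (RPKM) where genes are compared with each other, and differences as the log2 ratio of SHs over MHs with its 95% interval (Clopper-Pearson), in which only counting error is included. With 1 library a group there was no test between conditions, and the comparison is between these libraries. The hepatocyte markers Alb, Apoa1, Ttr, Hnf4a, Cps1, Tdo2, Tat and Serpina1c were abundant in both libraries, with log2 ratios between -0.19 and 0.27. Markers of other cell types were scarce, and those of some types differed. The 6 cholangiocyte markers together held 13.9 RPM in MHs against 14.1 RPM in SHs. Of these, only Sox9 and Spp1 had at least 10 reads over both libraries. Their log2 ratios were 0.50 (0.16 to 0.85) and -0.33 (-0.63 to -0.02). The 29 endothelial, macrophage and stellate cell markers together held 130 RPM in MHs against 7.32 RPM in SHs. Of the 29, 25 were at least 2-fold lower in SHs. Among those with at least 10 reads, these were 10 of 10 endothelial, 8 of 9 macrophage and 6 of 6 stellate cell markers. Of all genes with that many reads, 4.46% were at least 2-fold lower. Lyve1, Marco and Colec11 had 14, 3 and 26 reads in MHs against 0 in SHs. Of 10 lymphocyte markers, 7 were at 0 in MHs and 6 at 0 in SHs. In a bulk library, fewer cells of a type and less RNA per cell cannot be told apart. Of the markers of the sort, Icam1 had a log2 ratio of -0.24 (-0.54 to 0.08), and Pecam1, Ptprc and Epcam had 73, 9 and 6 reads in MHs against 8, 5 and 1 in SHs.

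Short elements in promoters are the sequences through which interferons act on their target genes. Promoters from 250 bases before to 50 after the start of transcription were taken from RefSeq (GRCm38.p6, the build called mm10) for the 29 members listed there by symbol. Both strands were searched for the core of the interferon-stimulated response element, GAAA, any 2 bases and GAAA again, and for the palindromic gamma-activated site, TTCNNNGAA. The response element core lay in promoters of 14 of the 29 members (48.3%) and of 3.99% of the 27025 genes in the table. The gamma-activated site lay in those of 7 members (24.1%) and of 9.55% of all genes. Gbp7, Igtp and Irgm2 held both. The following stretches lie before the start in genes that the results return to, and each is given 5′ to 3′ on the strand of the gene, with every base of a match in capitals.

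Ifit1, an RNA-binding effector, chr19:34640765-34640833, plus strand, with 2 response element cores on the reverse strand: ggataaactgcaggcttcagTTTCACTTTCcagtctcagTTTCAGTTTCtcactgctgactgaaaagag
Ifit3, its neighbour, which was lower in SHs, chr19:34583353-34583436, plus strand, with 2 cores: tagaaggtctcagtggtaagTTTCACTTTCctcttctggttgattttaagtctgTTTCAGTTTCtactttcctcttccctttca
Isg15, the ubiquitin-like modifier, chr4:156200855-156200916, minus strand, with 3 cores that overlap each other: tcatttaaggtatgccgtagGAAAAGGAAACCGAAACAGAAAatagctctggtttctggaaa
B2m, the light chain of class I molecules, chr2:122147528-122147577, plus strand, with 1 core: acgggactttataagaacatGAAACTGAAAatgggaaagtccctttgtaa
Irf1, the member with the highest ratio among those with more than 3 reads in each library, chr11:53769904-53769952, plus strand, with a gamma-activated site and no response element core: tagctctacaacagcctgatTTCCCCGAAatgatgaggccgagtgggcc
Igtp, a GTPase gene, chr11:58199491-58199551, plus strand, with 1 of each motif: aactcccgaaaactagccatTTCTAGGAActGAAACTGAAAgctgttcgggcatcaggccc
Irgm2, its neighbour, chr11:58214882-58214942, plus strand, before the RefSeq start, which lies within the longer GENCODE span of the gene, with 1 of each motif: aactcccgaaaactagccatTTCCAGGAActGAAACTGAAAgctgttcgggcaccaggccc

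A match is a description of the letters in this window. The stretches of Igtp and Irgm2 had 59 of 61 bases in common. The 14 members with a response element core had a median log2 ratio of -0.08, from -0.83 for Ifit3 to 0.25 for Irgm2, and the 15 members without one had a median of 0.11. The 7 members with a gamma-activated site had a median of 0.25, from -0.28 for Igtp to 0.92 for Irf1, and the 22 without one had a median of 0.01. Of these 7, 4 had a ratio above 0, among them Ifit2 with only 4 reads in MHs. Their median is the ratio of Irgm2, a gene that shares exon bases with Igtp. Differences between these groups were not tested.

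Both hepatocyte libraries held transcripts of nearly the whole module, and the members kept nearly the same order of levels. Reads were present for 37 of the 38 genes in both libraries, Oas2 being the exception with 0 reads in MHs against 2 in SHs. Among the 15521 genes with at least 10 reads in the libraries together, 86 had 0 reads in MHs and 39 had 0 in SHs. The summed share of the 38 members in all reads was 0.294% for MHs and 0.292% for SHs (log2 ratio -0.01, -0.02 to 0.01). H2-K1, B2m and H2-D1 alone accounted for 77.3% of the members' reads in MHs and 75.8% in SHs, so that sums describe mainly these genes. Ranked by RPKM, 18 members held the same rank in both libraries and 34 moved by at most 2 ranks. Among members with more than 3 reads, levels spanned 12856-fold in MHs and 28990-fold in SHs. Over so wide a span small ratios leave most ranks in place, and ranks of other gene sets were not compared. The largest move was that of Irf1, which went up by 7 ranks, from rank 16 in MHs to rank 9 in SHs.

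**Figure D1:**
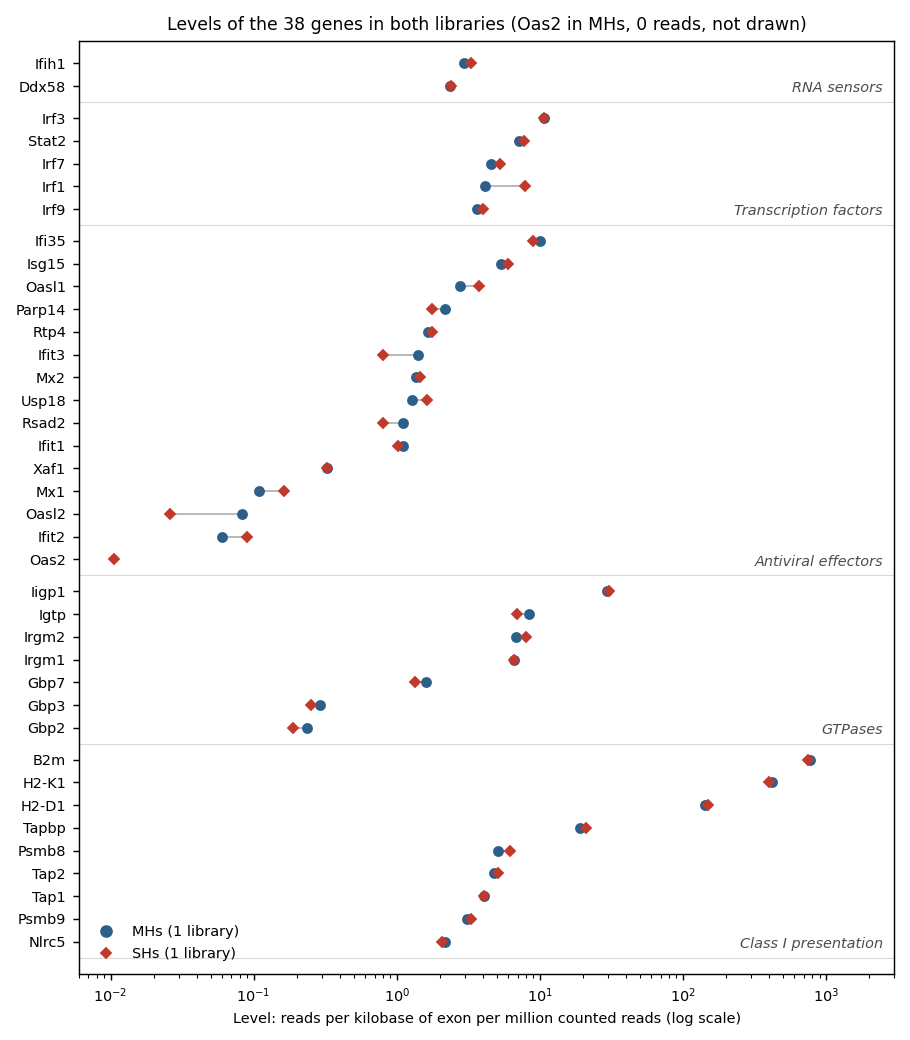
Level of each of the 38 genes in MHs (circles) and SHs (diamonds), 1 library each, in RPKM on a log axis, grouped by role, with Oas2 in MHs, at 0 reads, not drawn. The symbols of most genes overlap, B2m leads at 771 RPKM in MHs against 752 in SHs, and Irf1 has the widest gap among the transcription factors. The order between genes depends on the exon lengths used, which were 860 bases for B2m and 2938 for H2-K1. In reads, H2-K1 had more, with 21036 in MHs against 11262 for B2m.

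As ratios, the module lay close to 0. The median log2 ratio over all 38 members was 0.06, beside 0.02 over the 15521 genes with at least 10 reads in the libraries together. The ratio was above 0 for 24 members and under 0 for 14, where 52.0% of all genes were above 0. The interval lay wholly above 0 for 7 members (Irf1, Irf7, Oasl1, Irgm2, Tapbp, H2-D1 and Psmb8) and wholly under 0 for 7 (Ifit3, Rsad2, Oasl2, Parp14, Igtp, B2m and H2-K1), of which B2m included 0 under each of 3 other scalings. Over all genes, 16.8% had an interval above 0 and 15.5% one under 0, so the members' shares were near the background. Only Oasl2 was at least 2-fold lower with an interval under 0, where 4.46% of all genes were, and no member was at least 2-fold higher, where 2.00% of all genes were. With a limit of 1.5-fold, Oasl2 and Ifit3 were lower and Irf1 higher, beside 6.20% and 3.50% of all genes. For 30 members the whole interval lay within 2-fold either way and for 25 within 1.5-fold, beside 68.1% and 51.9% of all genes. The width of an interval depends on reads, of which the members had a median of 976 over both libraries and all these genes one of 416.

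**Figure D2:**
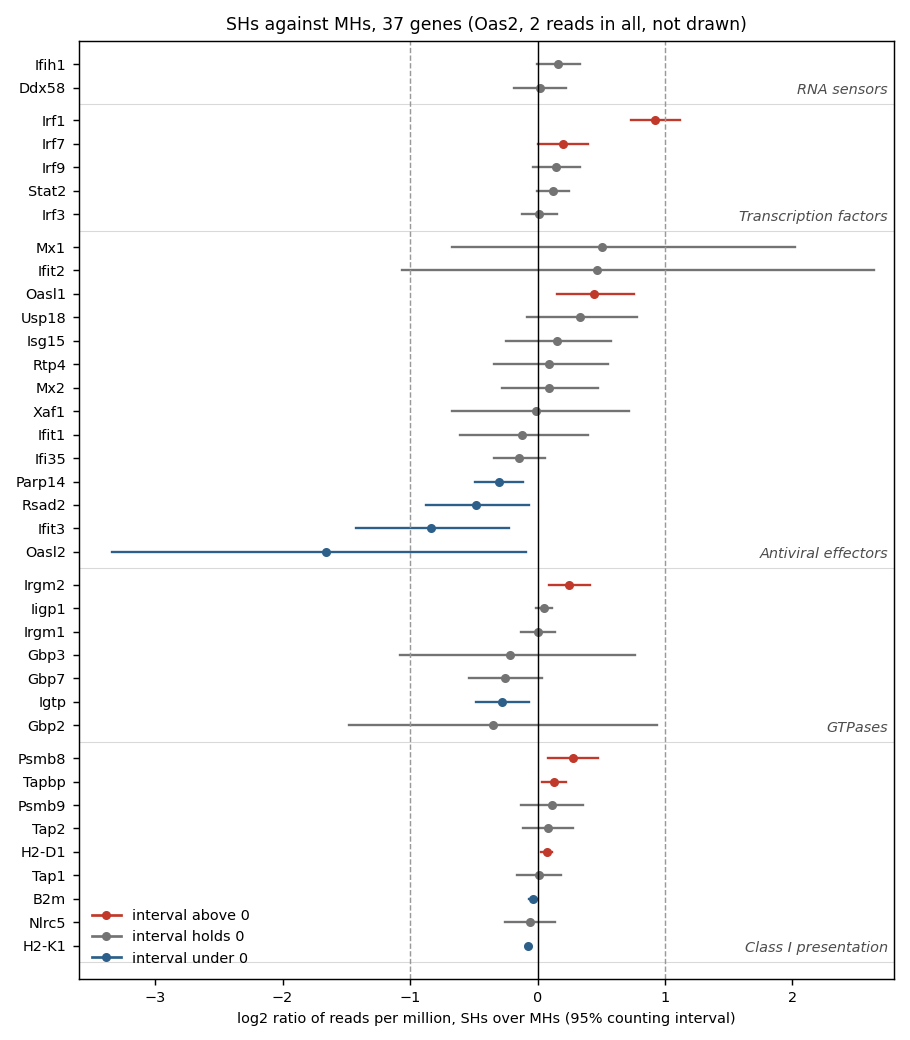
Log2 ratio of RPM in SHs over MHs for 37 genes (points) with the 95% counting interval (lines), grouped by role, with dashed lines at 2-fold either way and intervals above 0 in red, under 0 in blue and with 0 inside in grey. Most intervals are short and lie within the dashed lines, Irf1 stands at 0.92 and Oasl2 at -1.66.

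Genes of sensing and signalling came first in the pathway. Ifih1 and Ddx58 encode MDA5 and RIG-I, the cytosolic helicases that recognise viral RNA. Ifih1 had 23.9 RPM in MHs against 26.8 in SHs, and Ddx58 had 16.7 and 16.9. Both ratios had intervals that included 0 and lay within 1.5-fold of equality, although that of Ifih1 lay just above 0 under each of 3 other scalings.

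Of the transcription factors, Irf1 was the one that stood apart. Irf1 (chromosome 11, 53770014 to 53778374 of mm10) encodes an activator that is itself induced by interferon gamma and other cytokines and acts on class I, immunoproteasome and GTPase genes. It had 278 reads in MHs against 1316 in SHs, or 16.4 and 31.1 RPM. The log2 ratio was 0.92 (0.74 to 1.12), which is 1.89-fold, with a counting interval of 1.67-fold to 2.17-fold. Gm17334, a gene on the opposite strand that shares 135 exon bases with Irf1, had 1 read in MHs against 2 in SHs. The other factors had smaller ratios. Irf7, the amplifier of type I interferon production, had 17.3 RPM in MHs against 19.8 in SHs (log2 ratio 0.20, 0.01 to 0.40). Stat2 and Irf9, which act in the type I complex, had log2 ratios of 0.12 and 0.14 with intervals that included 0, that of Stat2 only just and not under any of 3 other scalings. Irf9 shares 123 exon bases on the same strand with Rnf31, which had 141 and 345 reads. Irf3, which is present before infection and activated by phosphorylation, was the factor with the highest level per length, with 10.6 RPKM in MHs against 10.7 in SHs, with an interval of its log2 ratio from -0.12 to 0.15.

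The antiviral effectors were low and were measured with few reads. Ifi35, of which the product regulates innate signalling, led them with 9.96 RPKM in MHs against 9.01 in SHs, and 5 of the 15 members of this role had fewer than 30 reads in MHs. Isg15 had 69 reads in MHs against 192 in SHs, and Usp18, the protease that removes ISG15 from proteins and dampens the receptor, had 61 and 193. Their log2 ratios were 0.15 (-0.25 to 0.58) and 0.33 (-0.08 to 0.78), which include 0. Rtp4, Mx2 and Xaf1 also had intervals on both sides of 0, with 60, 83 and 26 reads in MHs against 160, 221 and 65 in SHs.

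The 2'-5' oligoadenylate synthetase family was not uniform. Oasl1 encodes a member without synthetase activity that restrains translation of IRF7. It had 122 reads in MHs against 416 in SHs, or 7.19 and 9.82 RPM (log2 ratio 0.45, 0.16 to 0.75). Oasl2 had 9 reads in MHs but 7 in SHs, the deeper library, a log2 ratio of -1.66 with a wide interval of -3.34 to -0.09. Oas2 was at or under 3 reads, the limit that a count of 0 allows, in both libraries, so no fold is given.

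Among the IFIT proteins, which bind foreign RNA, Ifit3 was lower in SHs. Ifit3 had 42 reads in MHs against 59 in SHs, or 2.47 and 1.39 RPM (log2 ratio -0.83, -1.42 to -0.22). Ifit1, which carries the same 2 response element cores in its promoter, had 2.94 RPM in MHs against 2.72 in SHs (log2 ratio -0.13, -0.61 to 0.39). The intervals of Ifit1 and Ifit3 overlapped. Ifit2 had only 4 reads in MHs against 15 in SHs. Rsad2, the gene of viperin, an enzyme that makes a chain-terminating nucleotide, had 82 and 147 reads (log2 ratio -0.48, -0.88 to -0.07). Parp14, an ADP-ribosyltransferase, had 20.2 RPM in MHs against 16.4 in SHs (log2 ratio -0.30, -0.49 to -0.11). Mx1, the myxovirus resistance gene that is known to be defective in C57BL/6 mice, had 7 reads in MHs against 26 in SHs, too few to place its ratio, which had an interval of -0.67 to 2.02.

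Of the GTPases that attack the vacuoles of intracellular parasites, Iigp1, Irgm1, Irgm2 and Igtp were abundant per length, from 6.61 to 30.6 RPKM over both libraries. Iigp1 had 172 RPM in MHs against 178 in SHs (log2 ratio 0.05, -0.01 to 0.11), and at 29.5 and 30.6 RPKM it was the member with the highest level outside class I presentation. Irgm1, a regulator of the family, had 38.4 RPM in both libraries, and its interval ran from -0.13 to 0.13. Its relatives Igtp and Irgm2, with the nearly identical promoter stretches, had ratios on opposite sides of 0. Igtp (chromosome 11, 58199556 to 58207591) had 288 reads in MHs against 592 in SHs, or 8.39 and 6.91 RPKM (log2 ratio -0.28, -0.48 to -0.07). Irgm2 (chromosome 11, 58199618 to 58222782) had 424 and 1255 reads, or 6.77 and 8.03 RPKM (log2 ratio 0.25, 0.09 to 0.41). Their intervals did not overlap, but the annotated exons of these genes share 162 bases on the same strand, so that reads there could have gone to either. The guanylate-binding proteins Gbp2, Gbp3 and Gbp7, which coat pathogen vacuoles, had ratios between -0.35 and -0.21 with intervals that included 0. Gbp2 and Gbp3 had only 10 and 16 reads in MHs, and close paralogs make reads of this family uncertain.

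Class I presentation was the role with the most reads and differed little. All 9 of its genes had intervals wholly within 1.5-fold of equality, and their median log2 ratio was 0.07. H2-K1 (chromosome 17, 33996017 to 34000347), a classical heavy chain, had 1239 RPM in MHs against 1179 in SHs (log2 ratio -0.07, -0.09 to -0.05). B2m (chromosome 2, 122147686 to 122153083) had 663 and 646 RPM (log2 ratio -0.04, -0.07 to -0.01), an interval that included 0 under each of 3 other scalings. H2-D1 (chromosome 17, 35262730 to 35267499), the other classical heavy chain, had 369 and 388 RPM (log2 ratio 0.07, 0.03 to 0.11). These intervals are narrow because the genes had many reads, and without replicates a difference of this size cannot be set against the spread between preparations. Class I heavy chain genes are similar in sequence, and although the methods cap how many places a read may match, whether that rule lies behind the deposited counts is not given in the sources used here.

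Peptides for class I molecules are made by the proteasome, including its inducible form, and carried by a transporter into the endoplasmic reticulum. Tap1 and Tap2, the subunits of the transporter, had 22.1 and 18.1 RPM in MHs and 22.3 and 19.1 in SHs, with log2 ratios of 0.01 and 0.08 and intervals that included 0. Tapbp, the gene of tapasin, which loads the peptide, had 69.7 RPM in MHs against 76.2 in SHs (log2 ratio 0.13, 0.03 to 0.23). It shares 149 exon bases on the same strand with Zbtb22, which had 230 reads in MHs against 643 in SHs. On the opposite strand it shares 904 exon bases with Gm19412, which had 6 reads in each library. Nlrc5, the transactivator of class I genes, had 18.3 and 17.6 RPM, with an interval of -0.25 to 0.14. Psmb8 had 292 reads in MHs against 882 in SHs, or 17.2 and 20.8 RPM (log2 ratio 0.27, 0.08 to 0.47). Psmb9 had 191 and 515 reads (log2 ratio 0.11, -0.13 to 0.36). Psmb9 and Tap1 lie on opposite strands and share 212 exon bases, and whether the counting used strand is not given in the sources used here.

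Each inducible proteasome subunit takes the place of a constitutive one, and the ratio of such a pair within a library does not depend on scaling. Per kilobase, it does depend on the exon lengths used, and the intervals leave out any error in these. Psmb8 and Psmb5 had lengths of 3381 and 899 bases. For Psmb9 and Psmb6 they were 3660 and 1872, and for Psmb10 and Psmb7 1705 and 3421. In reads, Psmb8 and Psmb5 had 292 and 361 in MHs and 882 and 989 in SHs. The ratio of SHs over MHs for a pair is free of these lengths. Per kilobase of exon, Psmb8 had 0.215 times the reads of Psmb5 in MHs (0.184 to 0.252) and 0.237 times in SHs (0.216 to 0.260). Psmb9 had 0.0777 times the reads of Psmb6 in MHs and 0.0796 times in SHs. Psmb10, the third inducible subunit, had 0.411 times the reads of Psmb7 in MHs (0.360 to 0.468) and 0.497 times in SHs (0.460 to 0.536). The pair ratio of SHs over MHs was 1.10 (0.92 to 1.32) for Psmb8 over Psmb5, 1.02 (0.85 to 1.23) for Psmb9 over Psmb6 and 1.21 (1.04 to 1.41) for Psmb10 over Psmb7. Only for the last did the counting interval leave out 1. In both libraries the constitutive subunit of each pair had more reads and the higher level per kilobase.

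**Figure D3:**
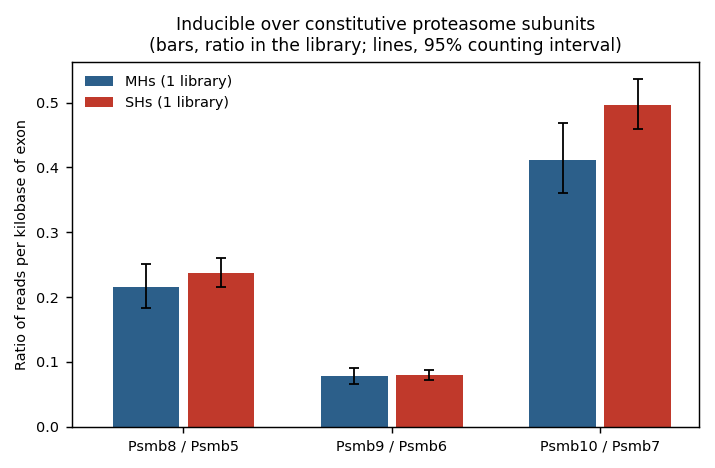
Ratio of an inducible proteasome subunit to the constitutive subunit it replaces, in reads per kilobase of exon, in MHs and SHs (bars from 0, 1 library each) with 95% counting intervals (lines). All 6 bars are under 1, the pairs of Psmb8 and Psmb9 overlap between libraries, and Psmb10 over Psmb7 is 0.411 in MHs against 0.497 in SHs. Bar heights depend on the exon lengths used, and the lines leave out any error in them.

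The genes around the module were taken from lists of ligands, receptors, sensing adaptors, other interferon-stimulated genes and other class I genes, 133 of which were found. Transcripts of the interferons themselves were at or under the limit of detection. Of 10 interferon genes on the list, Ifnb1 had 1 read in MHs, Ifna2 had 2 reads in SHs, and the other genes had 0 reads in both libraries, which allows a level of up to 0.177 RPM in MHs and of up to 0.0708 RPM in SHs. Both chains of the receptors for type I interferon and interferon gamma were present, and Ifnlr1, of the lambda receptor, had 0 and 2 reads. Ifnar1 and Ifngr1 had log2 ratios of -0.21 (-0.34 to -0.08) and -0.30 (-0.56 to -0.03), and the intervals of Ifnar2 and Ifngr2 included 0. Downstream, the kinase genes Jak1, Jak2 and Tyk2 had log2 ratios between -0.03 and 0.01.

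Socs3 was the gene with the highest ratio of SHs over MHs among those of these lists with at least 50 reads. Socs3 encodes a feedback inhibitor of cytokine receptors that is induced through STAT3. It had 617 reads in MHs against 4292 in SHs, or 36.3 and 101 RPM (log2 ratio 1.48, 1.36 to 1.60). Stat3 had 71.3 and 89.8 RPM (log2 ratio 0.33, 0.24 to 0.43).

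Of the 17 genes of the sensing pathway, 14 had at least 10 reads. Of these, 0 were at least 2-fold different with an interval on that side. Over all genes, 4.46% were lower and 2.00% higher, so that this count is near the background. The interval lay above 0 for 6 of the 17 and under 0 for 0, beside 16.8% and 15.5% of all genes. Mavs, Trim25 and Irf2 had log2 ratios of -0.01, 0.19 and 0.24. Of the 59 other interferon-stimulated genes, 51 had at least 10 reads, and of these 5 (9.8%) were at least 2-fold lower and 1 (1.96%) higher, beside the same 4.46% and 2.00% of all genes. Their median log2 ratio was -0.05, and over all 59 it was -0.10. A further 4 genes with fewer reads, Oas1g, Ifi27l2a, Sp110 and Slfn5, were also at least 2-fold lower, on 3 to 5 reads in MHs and at most 1 in SHs. Abundant ones lay close to 0, with log2 ratios of 0.13 for Lgals9, 0.06 for Helz2 and -0.06 for Bst2. Of all these lower genes, only Cxcl9, a chemokine gene induced by interferon gamma, had at least 50 reads, with 90 in MHs against 63 in SHs (log2 ratio -1.83, -2.32 to -1.35). Ifi203, with 14 reads in MHs against 0 in SHs, was at least 11.6-fold lower when 3 reads were taken as the limit in SHs, and Gbp4 had 12 and 2 reads. The 1 higher gene was Oas1a, with 1 read in MHs against 20 in SHs (log2 ratio 2.45, 0.36 to 8.38). These lower genes were seen in the same libraries in which the 29 endothelial, macrophage and stellate cell markers held 130 and 7.32 RPM, and the part of such cells in their ratios was not tested.

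Class II genes lay apart from class I genes. Of the 7 genes of class II presentation, which professional antigen-presenting cells use, only H2-Aa, H2-Ab1 and Cd74 had at least 10 reads. All 3 were at least 2-fold lower, where 4.46% of all genes were, with a median log2 ratio of -3.08. Cd74, the invariant chain, had 46 reads in MHs against 5 in SHs (log2 ratio -4.40, -6.21 to -3.19), an interval that did not overlap those of B2m, H2-K1 and H2-D1. The class II genes summed to 5.65 RPM in MHs against 0.637 in SHs. Endothelial markers summed to 87.9 RPM in MHs against 4.34 in SHs, and macrophage markers to 22.6 and 1.04. The 9 members of class I presentation summed to 2428 and 2382 RPM (log2 ratio -0.03, -0.04 to -0.01), a sum carried by H2-K1, B2m and H2-D1. The part of other cell types in these levels was not tested. The list of 24 further class I genes also held class I-like genes outside peptide presentation, such as Azgp1, Hfe and Fcgrt, and the co-receptor gene Cd8a. Of these 24, 1 was at least 2-fold lower, H2-T24 with 16 and 18 reads, a share near the 4.46% of all genes. The interval lay under 0 for 10 of the 24 and above 0 for 2, beside 15.5% and 16.8% of all genes. Where reads are many, an interval leaves out 0 at a small ratio. Calr, with 16539 reads in MHs against 39703 in SHs, had a log2 ratio of -0.06 (-0.08 to -0.03). Others lay further under 0. Erap1, with 1368 reads in MHs against 2700 in SHs, had a log2 ratio of -0.34 (-0.43 to -0.24). Hfe, Cd1d1, Fcgrt and Canx had log2 ratios of -0.27, -0.21, -0.21 and -0.14, with intervals under 0. Without the 10 genes with the most reads, every ratio shifted up by 0.03. H2-Q2 had 24 reads in MHs against 120 in SHs (log2 ratio 0.98, 0.36 to 1.70), and H2-Q10, Calr and Azgp1, the most abundant, had log2 ratios between -0.06 and -0.05.

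**Figure D4:**
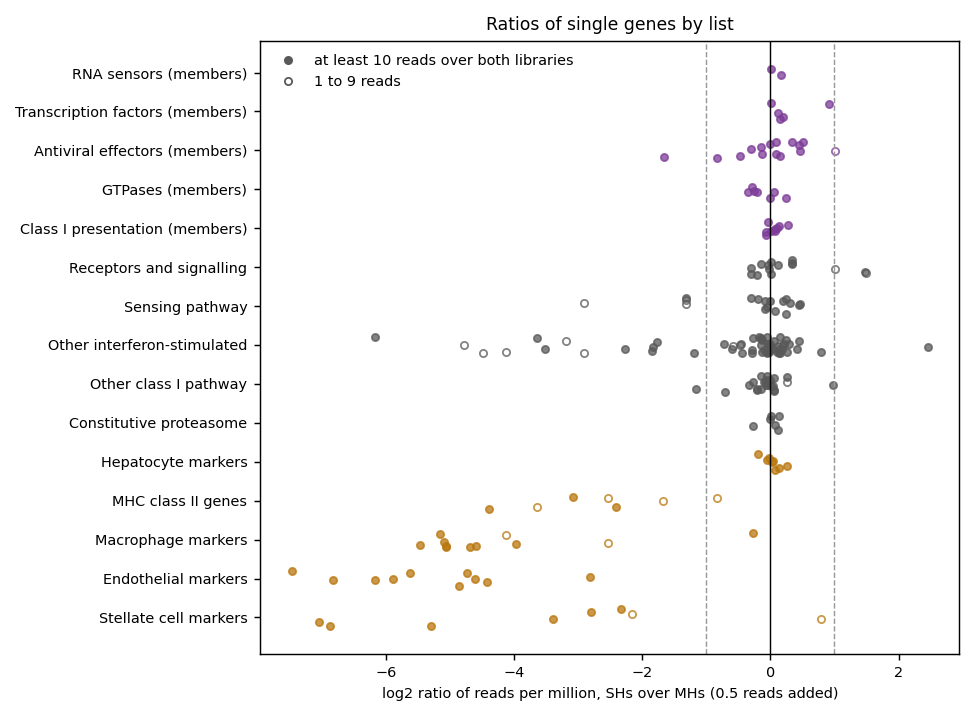
Log2 ratio of RPM in SHs over MHs for each gene with at least 1 read, by list, with filled symbols for genes with at least 10 reads in the libraries together and open symbols for fewer, the members in purple, other pathway genes in grey, class II genes and cell markers in orange, and dashed lines at 2-fold. Most members and the hepatocyte markers gather around 0, class II genes and most markers of endothelial, macrophage and stellate cells lie to the left of them, and values of genes at 0 reads in a library depend on the 0.5 reads added.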

How the data were processed

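For each library, the authors deposited whole read counts per gene symbol, without normalization. The study's methods describe trimming, alignment to mm10 in CLC Genomics Workbench and RPKM values, whereas the program and annotation behind the deposited counts are not given in the sources used here. RPM and log2 ratios with 0.5 added reads were computed with scipy 1.17.1 and pandas 2.3.3 in Python 3.11.15. A gene was called at least 2-fold different when its ratio passed 2-fold and its 95% interval lay on that side of 0. RPKM used the union of exons in GENCODE M21 (mm10). Levels compared between genes depend on these lengths, whereas ratios of a gene between the libraries do not. As alternatives, ratios were scaled by TMM factors from edgeR 4.0.16, by size factors from DESeq2 1.42.0 (both in R 4.3.3) or by totals that left out the 10 most abundant genes, and 2 reads were added, the minimum of reads was changed or the limit was set to 1.5-fold. The calculation was checked on simulated counts. No molecular identifiers are mentioned, so reads need not be independent molecules. Named were all members, the partners of the immunoproteasome, the sort markers and, from each list, the 3 genes with the most reads and up to 8 genes at least 2-fold different with at least 50 reads, of which the text gives a choice. Other genes named (Ifnb1, Ifna2, Ifnlr1, Ifnar2, Ifngr1, Ifngr2, Jak2, Tyk2, Ifi203, Gbp4, Sp110, Oas1a, Cxcl10, H2-T24, H2-Q2, Oas1g, Ifi27l2a, Slfn5, Irf5, Myd88 and the like) and the pairs in the closing section were chosen after their values were seen. Erap1, Hfe, Cd1d1, Fcgrt and Canx were also named after their values were seen. The members and lists were chosen with earlier results of these data known.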

Additional observations from a re-analysis of the deposited data

How the results depend on the processing

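No paired analysis was possible because each group held a single library. Under the scalings by TMM, by DESeq2's size factors and by totals without the 10 genes with the most reads, every log2 ratio shifted by 0.01, 0.01 and 0.03. The median over the 38 members lay between 0.03 and 0.09 under all alternatives. The interval of B2m included 0 under each of these scalings, and those of Ifih1 and Stat2 moved above 0, as did that of Iigp1 without the 10 genes. H2-K1 moved out of its interval there, to -0.04. With a limit of 1.5-fold, 2 members were lower and 1 higher, and 543 genes in all were higher. With at least 50 reads, 0 members were at least 2-fold lower, since Oasl2 had fewer, and 244 and 134 of all genes were at least 2-fold lower and higher. The median of the antiviral effectors was 0.09, but -0.06 with 2 added reads and -0.01 over the 11 with at least 50 reads. Depth limited the effectors and Gbp2 and Gbp3 most, where an interval could be more than 1 unit wide on the log2 scale.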

Other observations

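Ratios of neighbouring or partner genes within a library do not depend on scaling, and these pairs were chosen after their values were seen. Within a library they depend on the exon lengths used, which the ratio between the libraries does not. Per kilobase of exon, Irgm2 had 0.807 times the reads of Igtp in MHs and 1.16 times in SHs, a ratio of 1.44 between the libraries (95% counting interval 1.20 to 1.73). H2-D1 had 0.339 times the reads of H2-K1 in MHs (0.330 to 0.349) and 0.375 times in SHs (0.368 to 0.382), a ratio of 1.10 (1.07 to 1.14). Irf1 had 0.580 times the reads of Stat2 in MHs and 1.01 times in SHs, a ratio of 1.75 (1.49 to 2.05). Tap1 and Tap2, whose genes lie close together on chromosome 17, kept their proportion, with a ratio of 0.95 and an interval of 0.79 to 1.14. For all of these pairs the interval covers counting error alone, and no replicate shows how far such proportions vary between preparations.

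Irf5 and Myd88 had the highest ratios among the 17 genes of the sensing pathway, and both stayed under 2-fold. In that list 7 genes had a ratio above 0 and 10 had one under 0. Its median log2 ratio was -0.05, or 0.03 over the 14 genes with at least 10 reads. Irf5 had 9.01 RPM in MHs against 12.5 in SHs (log2 ratio 0.46, 0.21 to 0.74), and Myd88, an adaptor of Toll-like receptors, had 5.89 and 8.05 RPM (log2 ratio 0.45, 0.13 to 0.79). The chemokine gene Cxcl10, a relative of Cxcl9, had 12 reads in MHs against 27 in SHs, and its interval of -1.18 to 0.97 did not lie apart from 0.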
